A study of Mus musculus with 8 samples.

Results

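The genes described here are 35 components of protein folding in the endoplasmic reticulum (ER) and of the unfolded protein response, taken as a list of gene symbols that was drawn up with earlier results of these data known and that sets no threshold on measured values. Every symbol on the list was found at 1 locus, so the set covers 35 of the 23699 loci measured in mouse liver. A gene was used if it reached 1 FPKM (fragments scaled to transcript length and to the number of mapped fragments, so that levels can be compared between genes) in at least 2 libraries. All 35 passed, and 34 of them reached 1 FPKM in all 8 libraries. Derl3 lies just inside that limit, with 1 FPKM or more only in LMKO re-fed replicate 1 and LMKO fasted replicate 1, and no listed gene fell outside it.

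Polyadenylated liver RNA was sequenced from male C57/BL6 mice aged 8 weeks in 4 groups of 2 libraries, and the study's design gives 2 mice per group. The groups were LMKO re-fed, control re-fed, LMKO fasted and control fasted. LMKO mice carry a liver-specific knockout of Med23, which encodes a subunit of the transcriptional coactivator Mediator. The labels used here name neither the promoter that drove the deletion nor the alleles of the control mice. Fasted mice went without food for 24 h, and re-fed mice had the same fast followed by 24 h of feeding. The comparisons ask how feeding state and loss of Med23 relate to the level of each gene.

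Secreted and membrane proteins enter the ER through the Sec61 channel, and chaperones, disulfide isomerases and prolyl isomerases fold them there. Proteins that fail to fold are drawn back to the cytosol and degraded, a route called ER-associated degradation. When unfolded protein accumulates, the sensors IRE1 (gene Ern1), ATF6 and PERK start the unfolded protein response, in which spliced XBP1 and cleaved ATF6 raise transcription of folding and degradation genes. Hepatocytes secrete most plasma proteins and lipoproteins, and their ER folding genes are known to vary with feeding.

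The best known DNA element of this response is the ER stress response element (ERSE), CCAAT and CCACG separated by 9 bases, at which NF-Y and ATF6 or XBP1 can bind. It was searched on both strands in the 300-base RefSeq promoter windows of the GRCm38.p6 build, which run from 250 bases before to 50 bases after each annotated start. Of the 35 genes, 29 had a window. Manf, Hyou1, Derl1, Sec61a1, Ssr2 and Atf6 had none. The ERSE letters stood in 10 of the 29 genes, or 34.5%, at 11 sites. Among all 27025 genes with a window they stood in 37, or 0.137% (39 of 32851 windows). The 35 genes were listed as parts of the response to which this element belongs, so these shares are descriptive and were not tested. A related element, ERSE-II (ATTGG and CCACG separated by 1 base, both strands), stood in 2 of the 29 genes, Herpud1 and Dnajb11, and in 0.0444% of all genes with a window. The shorter letters TGACGTG, called UPRE and also searched on both strands, stood in Hspa5 among the 29 genes and in 2.22% of all genes with a window. No site of one motif overlapped a site of another in these genes. A match is a description of the letters and not a site shown to be bound, and the window of a gene without a match says nothing about these factors elsewhere.

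The promoter of Hspa5, which encodes the ER HSP70 chaperone BiP, is shown whole up to the start because it holds both ERSE and UPRE letters. It lies at chr2:34771840-34772089 on the plus strand of GRCm38.p6, 5′ to 3′, with UPRE and then ERSE in capitals.
Hspa5: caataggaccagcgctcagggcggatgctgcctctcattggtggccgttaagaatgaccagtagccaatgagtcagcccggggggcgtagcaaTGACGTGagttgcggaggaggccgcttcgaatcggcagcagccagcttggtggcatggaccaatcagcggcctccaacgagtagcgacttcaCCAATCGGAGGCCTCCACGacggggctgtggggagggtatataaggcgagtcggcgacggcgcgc
The ERSE letters of the genes whose levels are followed in detail below are shown next, in capitals with 20 bases of flank on each side, 5′ to 3′ on the strand that reads CCAAT first. They come from the plus strand at chr8:84847055-84847113 for Calr and chr12:17266471-17266529 for Pdia6. They come from the minus strand at chr11:50325780-50325838 for Canx and chr15:88819500-88819558 for Creld2. Syvn1 is at chr19:6046512-6046570 on the plus strand, all in GRCm38.p6.
Calr: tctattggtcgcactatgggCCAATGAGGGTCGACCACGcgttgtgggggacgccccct
Canx: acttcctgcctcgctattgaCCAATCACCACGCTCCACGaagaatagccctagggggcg
Pdia6: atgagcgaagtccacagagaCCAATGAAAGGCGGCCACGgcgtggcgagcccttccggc
Creld2: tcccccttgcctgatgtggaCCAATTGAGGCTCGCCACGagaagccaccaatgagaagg
Syvn1: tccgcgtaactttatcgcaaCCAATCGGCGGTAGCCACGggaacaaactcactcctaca
The last set holds promoters with the same letters from genes whose levels were not called different between re-fed and fasted livers. Dnajc3 is at chr14:118937807-118937865 on the plus strand and Derl3 at chr10:75893222-75893280 on the minus strand, both with ERSE in capitals. Herpud1 is at chr8:94386357-94386407 on the plus strand, with ERSE-II in capitals.
Dnajc3: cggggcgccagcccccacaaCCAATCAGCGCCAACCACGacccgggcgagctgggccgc
Derl3: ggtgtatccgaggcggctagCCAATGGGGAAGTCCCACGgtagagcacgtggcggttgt
Herpud1: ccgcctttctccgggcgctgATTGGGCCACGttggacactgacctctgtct
The ERSE core sat 65 to 47 bases before the start in Hspa5, 44 to 26 in Syvn1, 98 to 80 in Pdia6, 126 to 108 in Creld2 and 162 to 144 in Calr. In Calr, Creld2, Derl3 and Ero1lb the letters ran on the strand opposite to the gene. Hsp90b1 held 2 sites, 1 in each direction.

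**Figure D1:**
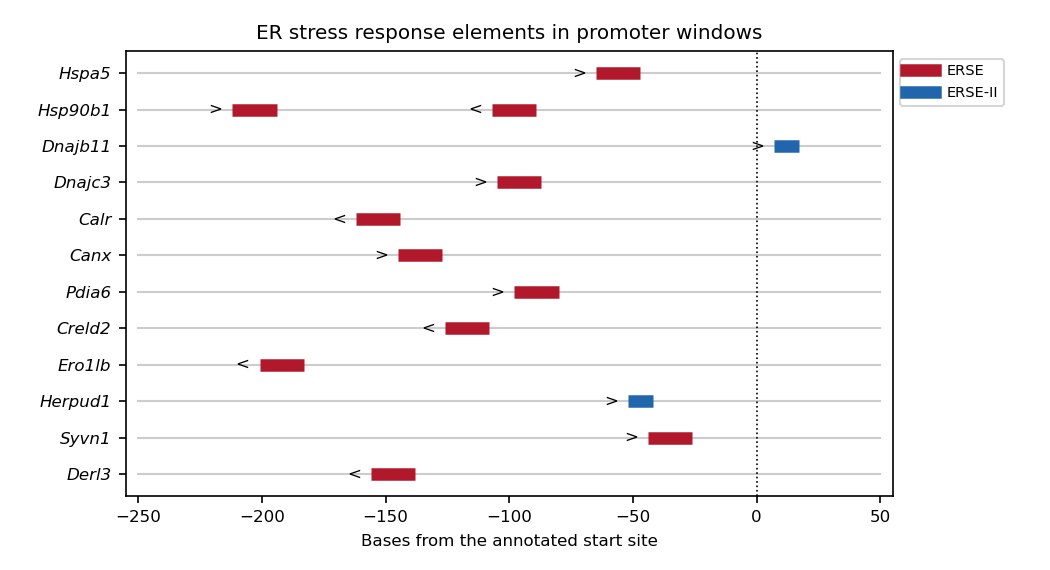
Positions of ERSE (red) and ERSE-II (blue) letters in the promoter windows of the 12 listed genes that hold either, in bases from the annotated start (dotted line), with arrowheads for the direction of the letters relative to the gene. Every ERSE core lies before the start, from 212 bases before it in Hsp90b1 to 26 bases before it in Syvn1.

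The libraries summed to 453652 to 597650 FPKM, and low FPKM steps put their relative depth between 0.895 and 1.04 of LMKO re-fed replicate 1. No read counts came with the FPKM values, so their absolute depth is unknown. Med23 was 1.61 and 1.74 FPKM in LMKO re-fed livers, against 2.86 and 2.33 FPKM in control re-fed livers. It was 2.35 and 2.18 FPKM in LMKO fasted livers, against 2.86 and 2.93 FPKM in control fasted livers. Both LMKO libraries lay below both controls in each state, but Med23 RNA remained and the difference was not called (adjusted p = 0.315 in re-fed and 0.438 in fasted livers). The labels do not say which exons were deleted. Of 9 hepatocyte markers 8 were tested, and Alb is listed at 0 in all 8 libraries. In liver this 0 for the albumin gene is not taken as absent RNA, and FPKM sums of the libraries leave it out. A locus listed at 0 elsewhere need not be absent either. Names of the deposited tables carry a number that follows feeding state, so any difference in handling between those sets cannot be told apart from feeding.

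Re-feeding went with a broad increase in ER folding genes. Across both genotypes 28 of the 35 rose and 0 fell (limma, Benjamini-Hochberg-adjusted p under 0.05, over all 10865 loci tested), while 32.4% of all loci tested were called higher and 20.6% lower. The median log2 fold change of the 35, re-fed over fasted on the log2(FPKM + 1) scale, was 1.01, against 0.10 for all loci tested. The split of called loci depended on the scale between libraries, with 3523 higher and 2242 lower as deposited, 2816 and 2787 with quantile normalization, and 2048 and 3630 with each library rescaled to an equal FPKM sum, where the median of all loci moved to -0.13. With quantile normalization 24 of the 35 genes were called higher and 2, Herpud1 and Ern1, lower, with a median of 0.67. With equal FPKM sums 25 were called higher and 1, Ern1, lower, with a median of 0.74. As deposited, 28 genes were higher in all 4 re-fed libraries than in all 4 fasted ones, as were 28.5% of all loci tested. The ER channel subunit Sec61b, the BiP-binding protein Manf and the co-chaperone subunit Sdf2l1 had the largest increases, with log2 fold changes of 2.49, 2.56 and 2.53. The genes not called were Dnajc3, Pdia5, Herpud1, Sel1l, Derl3, Atf6 and Ern1.

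Within LMKO livers 25 of the 35 rose on re-feeding and 1, Ern1, fell, with a median of 0.98, while 23.2% of all loci tested were called higher and 16.3% lower. Within control livers 25 rose and 0 fell, with a median of 0.96, while 22.8% of all loci tested were called higher and 10.5% lower. The summed FPKM of the 35 genes was 5567 and 5107 in LMKO re-fed livers and 4799 and 4298 in control re-fed livers. It was 2281 and 2331 in LMKO fasted livers and 2319 and 2055 in control fasted livers. The 35 genes thus made up 0.778% to 0.938% of the FPKM of a re-fed library and 0.453% to 0.504% of a fasted one. In a whole liver, more RNA per hepatocyte and more hepatocytes per sample cannot be told apart. The summed FPKM of the 9 hepatocyte markers, Alb among them at 0, was 26532 and 31465 in LMKO re-fed livers, around the 29432 and 29437 in LMKO fasted livers. It was 22172 and 26198 in control re-fed livers, below the 26501 and 28129 in control fasted livers. Of the 8 tested, 3 were called higher and 5 lower on re-feeding over both genotypes, with a median log2 fold change of -0.56.

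**Figure D2:**
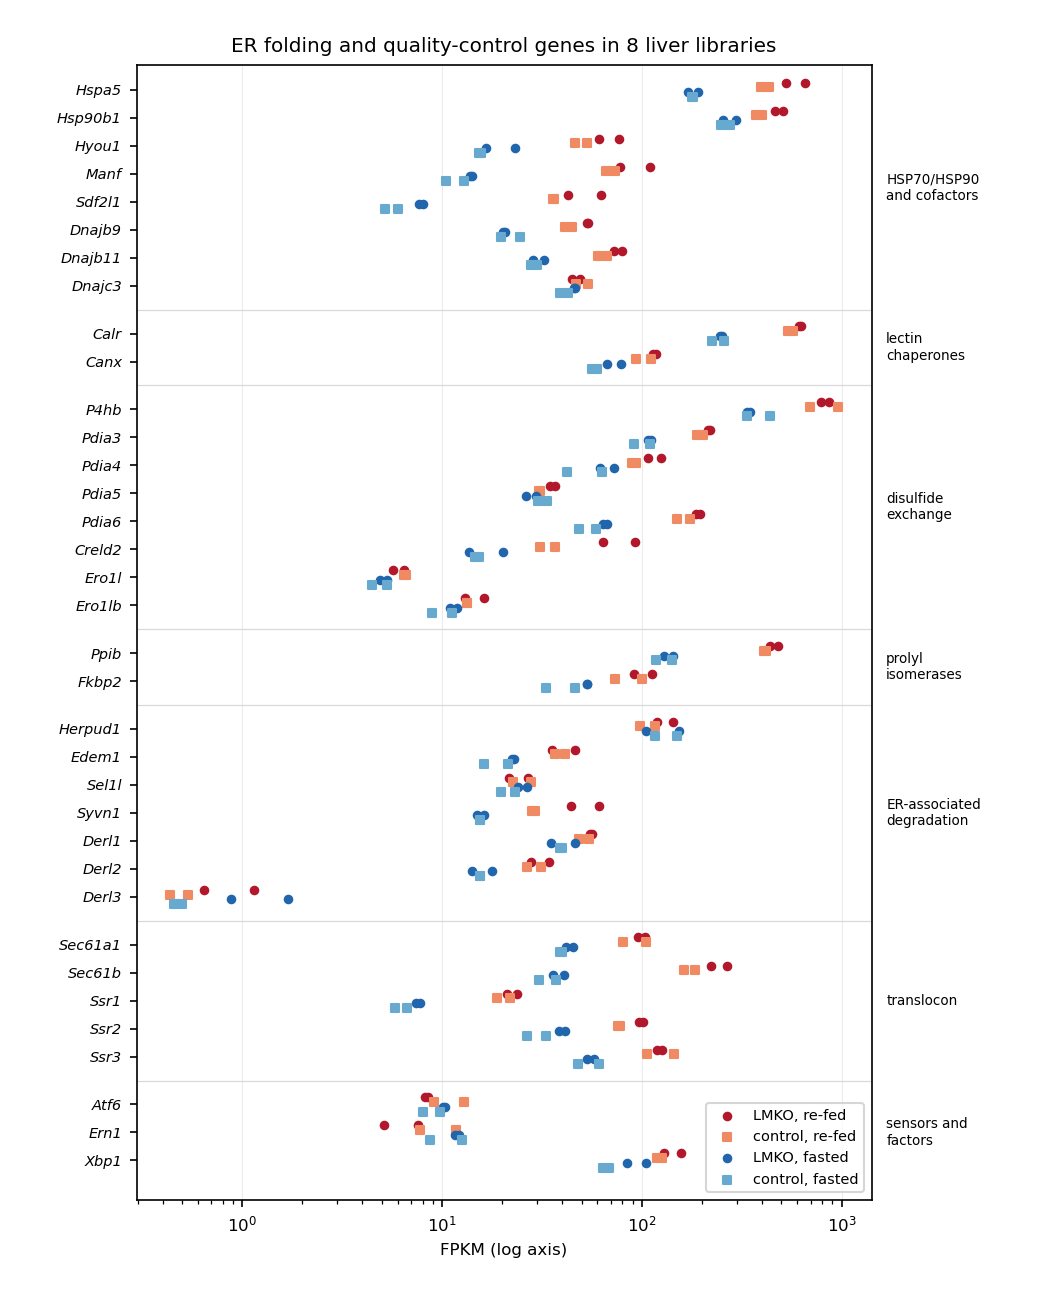
FPKM of the 35 genes in each library on a log axis, grouped by role, with red circles for LMKO re-fed, orange squares for control re-fed, dark blue circles for LMKO fasted and light blue squares for control fasted livers. The re-fed libraries lie above all fasted ones for 28 genes, as for 28.5% of all loci tested. The LMKO re-fed libraries lie above the control re-fed ones for 22 genes, Hspa5, Creld2 and Syvn1 among them, as for 25.6% of all loci tested.

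Several other measures moved with feeding. The summed FPKM of 7 sinusoidal endothelial markers, all detected in every library, was 48.9 to 68.0 in LMKO re-fed and 59.2 to 67.9 in control re-fed livers, against 110 to 117 in LMKO fasted and 81.0 to 86.3 in control fasted livers. That of 8 Kupffer and macrophage markers was 48.6 to 65.5 in LMKO re-fed and 84.8 to 107 in control re-fed livers, against 119 to 142 in LMKO fasted and 95.2 to 121 in control fasted livers. The endothelial sum was lower in every re-fed library than in every fasted one, and the Kupffer sum was so in LMKO livers, while the control groups overlapped. Of 5 cholangiocyte markers, most of whose sum came through Spp1, the sum was 24.2 to 26.3 FPKM in LMKO re-fed and 28.5 to 30.1 in control re-fed livers, against 8.12 to 9.43 in LMKO fasted and 8.40 to 12.03 in control fasted livers. The sum of 7 stellate markers was 44.2 to 57.0 FPKM in LMKO re-fed against 75.5 to 84.9 in LMKO fasted livers, and overlapped between control re-fed livers, at 62.5 to 81.9, and control fasted livers, at 76.9 to 81.7. That of 4 red blood cell markers was 42.0 to 58.1 FPKM in LMKO re-fed against 17.2 to 23.3 in LMKO fasted livers, and overlapped between control re-fed livers, at 21.6 to 53.7, and control fasted livers, at 16.5 to 51.1. The part of these lists in the result was not tested. Rn45s, the ribosomal RNA precursor, was 913 and 1386 FPKM in LMKO re-fed and 1324 and 185 in LMKO fasted livers. It was 802 and 3448 FPKM in control re-fed and 306 and 388 in control fasted livers, and its part was not tested either. Plasma and B cells have an abundant ER, and their 8 measured markers summed to 1.30 to 3.67 FPKM in any library. Of 8 pancreatic acinar markers 6 (Prss1, Prss2, Cpa1, Ctrb1, Pnlip and Amy2a5) are listed at 0 in all 8 libraries, although Cela1 brought the list's sum to 35.5 to 48.9 FPKM in LMKO re-fed and 23.9 to 43.4 in control re-fed livers, against 6.57 to 10.4 in LMKO fasted and 4.32 to 5.71 in control fasted livers. Across loci, a library's deviation from the mean correlated with log2 transcript length at 0.147 to 0.202 in fasted libraries, at -0.0179 in control re-fed replicate 1 and at -0.243 to -0.203 in the other re-fed libraries. With that trend removed, 29 of the 35 genes were called on re-feeding in either direction, all of them higher, with Dnajc3 and Atf6 gained and Ero1l lost. In that setting 51.5% of all loci tested were called in either direction. The length used is the median over a gene's annotated transcripts, such as 647 bases for Hspa5 and 5141 for Dnajc3. It need not be the length of the transcript present in liver, so calls gained or lost through it carry that limit.

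The HSP70 and HSP90 chaperones and their cofactors rose in 7 of 8 cases, with a median log2 fold change of 1.33 across both genotypes. For this role and each later one, the share of all loci tested in the same comparison was 32.4% higher and 20.6% lower. Hspa5 (chr2:34627610-34632049, mm9), the master chaperone BiP, had 654 and 527 FPKM in LMKO re-fed and 433 and 397 in control re-fed livers, against 170 and 191 in LMKO fasted and 178 and 180 in control fasted livers. The 4 re-fed libraries stand well above the 4 fasted ones, and both LMKO re-fed libraries are the highest. Its log2 fold change on re-feeding was 1.45 (SE 0.10, adjusted p = 0.000223), with 1.70 in LMKO and 1.21 in control livers. Hyou1 (chr9:44187573-44200452, mm9), an HSP70-like nucleotide exchange factor of BiP, had 76.6 and 61.4 FPKM in LMKO re-fed and 53.3 and 46.3 in control re-fed livers, against 16.6 and 23.1 in LMKO fasted and 15.8 and 15.3 in control fasted livers. The 2 feeding states did not overlap, and the log2 fold change was 1.69 (SE 0.13, adjusted p = 0.00028).

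Manf (chr9:106789746-106794269, mm9), which binds BiP and is also secreted, had 110 and 77.9 FPKM in LMKO re-fed and 66.1 and 73.7 in control re-fed livers, against 13.8 and 14.2 in LMKO fasted and 12.9 and 10.5 in control fasted livers. Every re-fed library was far above every fasted one, with a mean 6.72-fold higher in LMKO re-fed than LMKO fasted livers and 5.96-fold higher in control re-fed than control fasted livers. Sdf2l1 (chr16:17130231-17132476, mm9), which works with the co-chaperone encoded by Dnajb11 to keep unfolded proteins soluble, had 62.5 and 42.9 FPKM in LMKO re-fed and 36.4 and 36.0 in control re-fed livers, against 8.05 and 7.69 in LMKO fasted and 6.04 and 5.20 in control fasted livers. Its 4 groups followed one another without overlap, and its means differed 6.70-fold in LMKO and 6.44-fold in control livers. With the length trend removed the log2 fold change remained 2.34 for Manf and 2.48 for Sdf2l1.

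Among the other chaperones, the BiP co-chaperones Dnajb9 and Dnajb11 rose by log2 fold changes of 1.14 and 1.21. The HSP90 chaperone GRP94, encoded by Hsp90b1, was abundant in all libraries at 250 to 508 FPKM and rose by 0.69, a call lost with quantile normalization. Dnajc3, whose product p58IPK is a BiP co-chaperone and was also described as an inhibitor of PERK, was the exception, at 39.0 to 53.7 FPKM in all libraries. Its log2 fold change was 0.15 (adjusted p = 0.17), and turned to -0.15 with quantile normalization and -0.12 with equal FPKM sums. With the length trend removed it was 0.48 and called higher (adjusted p = 0.00308).

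Both lectin chaperones, which hold newly made glycoproteins, rose. Calr (chr8:87365987-87370830, mm9), soluble calreticulin, had 627 and 609 FPKM in LMKO re-fed and 571 and 537 in control re-fed livers, against 253 and 247 in LMKO fasted and 258 and 225 in control fasted livers. Canx (chr11:50107459-50139175, mm9), its membrane-bound partner calnexin, had 118 and 114 FPKM in LMKO re-fed and 111 and 93.2 in control re-fed livers, against 67.3 and 79.0 in LMKO fasted and 59.5 and 56.7 in control fasted livers. Feeding states did not overlap for either gene, and the log2 fold change was larger for Calr, at 1.25 (SE 0.08), than for Canx, at 0.73 (SE 0.10); the difference between the genes was not tested.

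The genes of disulfide exchange rose in 7 of 8 cases. Pdia6 (chr12:17273401-17291576, mm9), a disulfide isomerase that associates with BiP, had 195 and 188 FPKM in LMKO re-fed and 174 and 150 in control re-fed livers, against 64.3 and 66.7 in LMKO fasted and 59.2 and 48.4 in control fasted livers. Pdia3 (chr2:121239638-121264422, mm9), the isomerase that works with the lectin chaperones, had 215 and 219 FPKM in LMKO re-fed and 203 and 189 in control re-fed livers, against 108 and 111 in LMKO fasted and 109 and 91.3 in control fasted livers. Both separated the feeding states without overlap, with log2 fold changes of 1.55 (SE 0.10) for Pdia6 and 0.97 (SE 0.09) for Pdia3. Creld2 (chr15:88650076-88657111, mm9), an ER-resident protein with disulfide isomerase activity, had 92.5 and 64.1 FPKM in LMKO re-fed and 36.8 and 30.9 in control re-fed livers, against 13.6 and 20.3 in LMKO fasted and 14.7 and 15.4 in control fasted livers. The fasted groups overlap, and both LMKO re-fed libraries stand far above both control re-fed ones. The log2 fold change on re-feeding was 1.63 (SE 0.17, adjusted p = 0.000573).

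P4hb, the classical protein disulfide isomerase, was the most abundant of the 35 genes, at 336 to 961 FPKM, and rose by a log2 fold change of 1.18, and Pdia4 rose by 0.80, a call also lost with quantile normalization. The oxidases that recharge the isomerases moved least among those called. Ero1l, listed under that older name for Ero1a, was 4.46 to 6.62 FPKM and rose by 0.29, and Ero1lb was 8.90 to 16.3 FPKM and rose by 0.35. Both calls depended on the processing. Of 20 alternative settings Ero1l was called in 11, and its log2 fold change was 0.22 with median-ratio scaling, 0.055 with equal FPKM sums and 0.067 with the length trend removed, none of them called. Ero1lb was called in 10 of the 20, and was not called with median-ratio scaling (0.27), quantile normalization (0.24), equal FPKM sums (0.095) or no filter on low values. The call of Ero1l or Ero1lb was lost in 7 of the 8 fits that left out 1 library, all but the one without control fasted replicate 1. Pdia5, another isomerase of this family, was 26.4 to 36.6 FPKM with a log2 fold change of 0.15, which turned to -0.10 with quantile normalization and -0.12 with equal FPKM sums.

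Both prolyl isomerases, which catalyse the turning of proline bonds during folding, rose. Ppib (chr9:65907976-65914436, mm9), cyclophilin B, had 480 and 439 FPKM in LMKO re-fed and 417 and 411 in control re-fed livers, against 130 and 143 in LMKO fasted and 141 and 117 in control fasted livers. Fkbp2 (chr19:7052229-7054951, mm9), an ER-resident FK506-binding protein, had 113 and 91.3 FPKM in LMKO re-fed and 73.7 and 99.8 in control re-fed livers, against 53.4 and 53.2 in LMKO fasted and 46.6 and 33.2 in control fasted livers. Re-fed and fasted libraries did not overlap for either, with log2 fold changes of 1.71 (SE 0.10) for Ppib and 1.01 (SE 0.15) for Fkbp2. The LMKO and control re-fed libraries of Fkbp2 overlapped.

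In ER-associated degradation 4 of 7 genes were called higher on re-feeding, 0 lower and 3 not called, with a median log2 fold change of 0.41. Of all loci tested 32.4% were called higher and 20.6% lower. Syvn1 (chr19:6046576-6053718, mm9), the ubiquitin ligase HRD1, had 61.3 and 44.4 FPKM in LMKO re-fed and 28.4 and 29.3 in control re-fed livers, against 16.1 and 15.0 in LMKO fasted and 15.5 and 15.5 in control fasted livers. Its fasted levels were nearly the same in both genotypes, while both LMKO re-fed libraries lay above both control re-fed ones. The log2 fold change on re-feeding was 1.27 (SE 0.11, adjusted p = 0.000379). Derl2 (chr11:70820947-70832765, mm9), a derlin of the retrotranslocation machinery, had 34.5 and 27.8 FPKM in LMKO re-fed and 26.8 and 31.5 in control re-fed livers, against 17.7 and 14.1 in LMKO fasted and 15.5 and 15.4 in control fasted livers. It rose by 0.90 (SE 0.12), with overlap between genotypes in both states. Edem1, which recognises trimmed glycans on misfolded proteins, rose by 0.92. Derl1 rose by 0.41, but was not called without LMKO re-fed replicate 2, without control re-fed replicate 1, or with quantile normalization or equal FPKM sums.

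Sel1l, Herpud1 and Derl3 were not called. Sel1l, the adaptor of HRD1, was 19.7 to 27.8 FPKM with a log2 fold change of 0.08, which was below 0 with each of the other 3 scalings (-0.19 with equal FPKM sums). Herpud1, a stress-inducible membrane scaffold of the same complex, was high in all libraries at 97.5 to 154 FPKM, and its log2 fold change was -0.14 (adjusted p = 0.498), called lower with quantile normalization alone among the settings tried. Derl3 (chr10:75356143-75358686, mm9) was the lowest of the 35 genes, with 1.14 and 0.648 FPKM in LMKO re-fed and 0.536 and 0.435 in control re-fed livers, against 1.69 and 0.884 in LMKO fasted and 0.499 and 0.455 in control fasted livers. It differed more by genotype than by feeding in these values, and at such levels a few fragments can move it. It also passed the filter only through 2 LMKO libraries, so this genotype difference is tied to the filter.

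All 5 translocon genes rose, with a median log2 fold change of 1.32. Sec61b (chr4:47487533-47496105, mm9), the small beta subunit of the Sec61 channel, had 268 and 223 FPKM in LMKO re-fed and 163 and 185 in control re-fed livers, against 35.9 and 40.9 in LMKO fasted and 37.2 and 30.6 in control fasted livers. Its adjusted p of 8.62e-05 was the smallest of the 35, and its log2 fold change of 2.49 (SE 0.11) stood at 2.24 with the length trend removed. The channel-forming subunit Sec61a1 rose by 1.19, with levels of 38.8 to 105 FPKM.

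Ssr1 (chr13:38063270-38086059, mm9) and Ssr2 (chr3:88383593-88392335, mm9) encode subunits of the translocon-associated protein complex, which assists the entry of nascent chains. Ssr1 had 23.6 and 21.2 FPKM in LMKO re-fed and 22.0 and 19.0 in control re-fed livers, against 7.76 and 7.45 in LMKO fasted and 6.68 and 5.81 in control fasted livers. Ssr2 had 102 and 96.9 FPKM in LMKO re-fed and 77.8 and 76.1 in control re-fed livers, against 41.5 and 38.5 in LMKO fasted and 33.1 and 26.6 in control fasted livers. For Ssr2 the LMKO libraries lay above the control libraries in both states. The log2 fold changes on re-feeding were 1.51 (SE 0.09) for Ssr1, 1.32 (SE 0.09) for Ssr2 and 1.15 (SE 0.13) for Ssr3.

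The sensors and the transcription factor differed from one another. Xbp1 (chr11:5420970-5425875, mm9), whose mRNA is spliced by IRE1 into the active factor, had 158 and 129 FPKM in LMKO re-fed and 120 and 127 in control re-fed livers, against 84.8 and 105 in LMKO fasted and 64.1 and 68.8 in control fasted livers. It rose by 0.74 (SE 0.11, adjusted p = 0.00204), and the value was 0.32 with quantile normalization. A gene level does not separate spliced from unspliced Xbp1, so these values say nothing of IRE1 activity. Atf6 was 7.99 to 12.9 FPKM in all libraries, with a log2 fold change of 0.00, which fell below 0 in each of the other 3 scalings, to -0.25 with equal FPKM sums. With the length trend removed it was 0.30 and called higher (adjusted p = 0.0457).

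Ern1 (chr11:106258934-106349110, mm9), the gene of IRE1, had 7.57 and 5.14 FPKM in LMKO re-fed and 11.8 and 7.77 in control re-fed livers, against 12.2 and 11.7 in LMKO fasted and 12.6 and 8.72 in control fasted livers. Both LMKO re-fed libraries were below the other 6, and the control groups overlapped. With the values as deposited Ern1 was the only listed gene called lower in any re-feeding comparison, with a log2 fold change of -0.83 (adjusted p = 0.041) in LMKO livers, and that call was lost when any 1 of the 4 LMKO libraries was left out (adjusted p = 0.0502 to 0.19), and also once the length trend was removed or low loci were kept. In control livers the value was -0.12 (adjusted p = 0.749). Over both genotypes it was -0.48 (adjusted p = 0.0637), and it was called lower in 7 of 20 alternative settings. Those were median-ratio scaling (-0.55, adjusted p = 0.0404), quantile normalization (-0.54, adjusted p = 0.0441), equal FPKM sums (-0.72, adjusted p = 0.0168), the replicate block, and the fits without LMKO re-fed replicate 1, control re-fed replicate 1 or control fasted replicate 2.

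**Figure D3:**
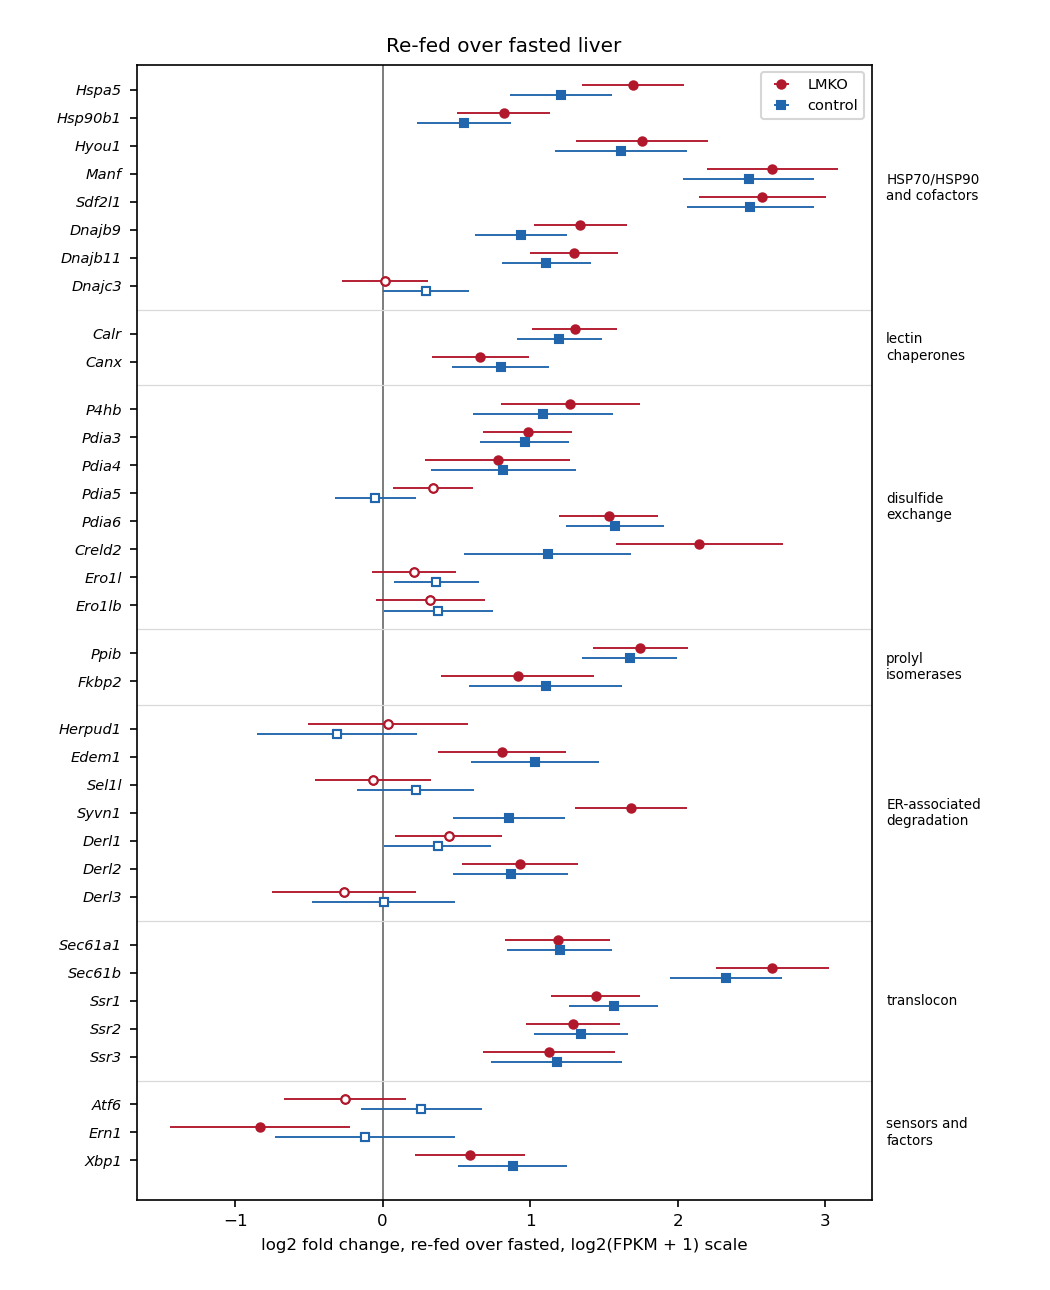
Log2 fold change of each gene, re-fed over fasted, with its 95% confidence interval, in LMKO (red circles) and control livers (blue squares), filled where the limma adjusted p was under 0.05. Manf, Sdf2l1 and Sec61b lie farthest right in both genotypes, and Ern1 in LMKO livers, at -0.83, is the only filled point left of 0.

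On re-feeding, over both genotypes, the median log2 fold change was 0.99 for the 10 genes with ERSE letters and 0.97 for the 19 genes with a window and no ERSE letters. Of 12 genes with ERSE or ERSE-II letters 9 were called higher, against 14 of 17 with neither, while 32.4% of all loci tested were called higher. Only exact letters within the window were searched, so a gene with neither can still hold a variant of the element. The difference between these sets was not tested. Genes with ERSE letters lay between -0.13 for Derl3 and 1.63 for Creld2, and those with a window and no ERSE letters between -0.48 for Ern1 and 2.53 for Sdf2l1.

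Between genotypes 0 of the 35 genes were called, in re-fed livers, in fasted livers or over both states (limma, Benjamini-Hochberg-adjusted p under 0.05). Of all loci tested 0.101%, 0.166% and 0.313% were called in those comparisons. At an unadjusted p under 0.05 there were 8 of the 35 in re-fed, 3 in fasted and 12 over both states, all higher in LMKO livers. Of all loci tested 11.7%, 12.4% and 15.1% passed that limit in either direction. Counting only loci higher in LMKO livers, 773, 955 and 1174 of the 10865 tested passed it. In re-fed livers 22 of the 35 had both LMKO libraries above both control libraries, as did 25.6% of all loci tested, and 2, Atf6 and Ern1, had both below, as did 19.4%. In fasted livers 15 had both above, where the share of all loci was 33%, and 1, Pdia5, had both below, where it was 12.8%. The median log2 fold change of the 35, LMKO over control, was 0.21 in re-fed livers and 0.17 in fasted livers, against 0.01 and 0.08 for all loci tested. The count of 8 in re-fed livers was 3 without LMKO re-fed replicate 1, 3 without control re-fed replicate 1, 5 without control re-fed replicate 2, 2 with quantile normalization and 3 with equal FPKM sums.

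In re-fed livers the largest difference was in Creld2, whose mean was 2.31-fold higher in LMKO than in control livers. Its log2 fold change was 1.17 (SE 0.24, 95% interval 0.60 to 1.73, limma adjusted p = 0.246), and 0.91 to 1.43 over the settings tried. On the log2(FPKM + 1) scale Syvn1 was next, with a mean 1.83-fold higher in LMKO livers (Derl3, at its low level, had a ratio of means of 1.84) and a log2 fold change of 0.83 (SE 0.16, 95% interval 0.45 to 1.21, adjusted p = 0.237). Hspa5 was 1.42-fold higher in the mean, at 0.50 (SE 0.15, 95% interval 0.15 to 0.85, adjusted p = 0.321). Sdf2l1 had a log2 fold change of 0.51, Sec61b of 0.49, Hyou1 of 0.46, Ssr2 of 0.36 and Hsp90b1 of 0.33. Their limma adjusted p ran from 0.354 to 0.425. With Creld2, Syvn1 and Hspa5 they make up the 8 genes at an unadjusted p under 0.05, chosen by p and not by size of change. Creld2, Syvn1, Hspa5 and Hsp90b1 carry ERSE letters, Sdf2l1 and Sec61b do not, and Hyou1 and Ssr2 had no promoter window. The other genes with ERSE letters had ratios of means, LMKO over control re-fed, of 1.11 for Calr, 1.13 for Canx and 1.18 for Pdia6. The ratio was 1.10 for Ero1lb, 1.84 for Derl3 and 0.930 for Dnajc3. A link between these letters and genotype was not tested. Kupffer and macrophage markers, as given above, and stellate cell markers, whose 7 genes summed to 44.2 and 57.0 FPKM in LMKO re-fed against 62.5 and 81.9 in control re-fed livers, were lower in LMKO re-fed livers, and their part in these differences was not tested. Ern1, at -0.55 (95% interval -1.16 to 0.07), and Atf6, at -0.33 (95% interval -0.74 to 0.08), had the lowest values.

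In fasted livers the genes at an unadjusted p under 0.05 were Derl3, Xbp1 and Ssr2, with log2 fold changes of 0.61, 0.50 and 0.42 and adjusted p of 0.312, 0.283 and 0.294. Their number was 1 without control fasted replicate 2. Derl3 reached the 1 FPKM of the filter only in LMKO libraries. Its place among these genes is thus tied to the filter and gives no support for a genotype difference. Hspa5 and Syvn1, which were not called in re-fed livers either, had fasted values of 0.01 (95% interval -0.34 to 0.36) and 0.01. These 2 genes were picked by their re-fed values, and the interaction was not called for either. Over both states Ssr2 had the smallest adjusted p, 0.173, with a log2 fold change of 0.39 (95% interval 0.17 to 0.62) and both LMKO libraries above both controls in each state. The count of 12 at an unadjusted p under 0.05 over both states was 4 without LMKO re-fed replicate 1, 6 without LMKO fasted replicate 2, 6 without control fasted replicate 2, 7 with median-ratio scaling, and 6 each with quantile normalization and equal FPKM sums.

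**Figure D4:**
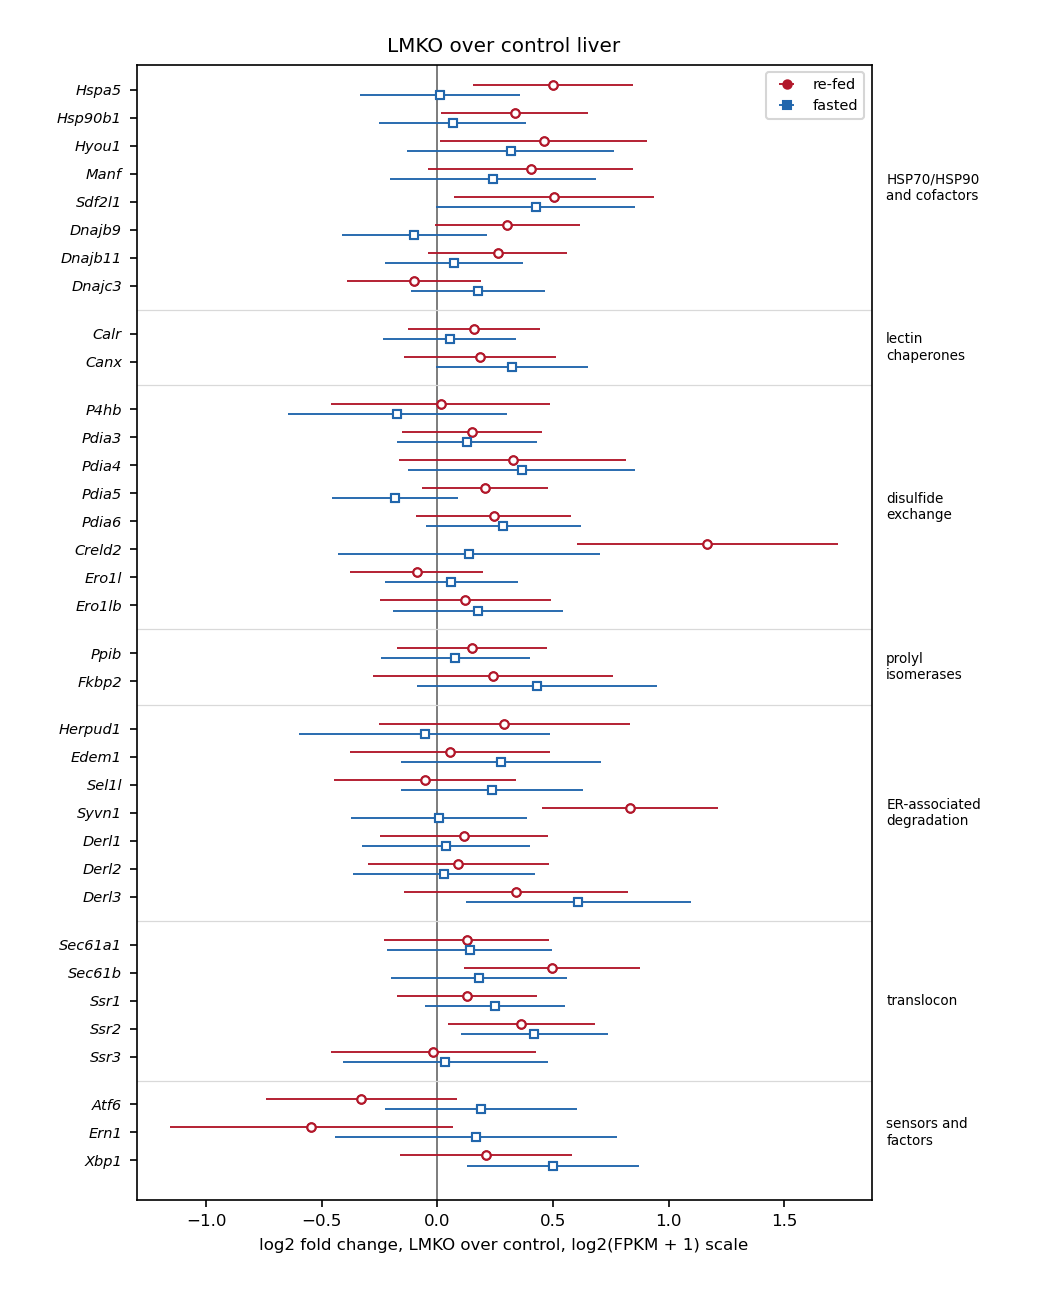
Log2 fold change of each gene, LMKO over control, with its 95% confidence interval, in re-fed (red circles) and fasted livers (blue squares), all open because no adjusted p was under 0.05. Creld2 at 1.17 and Syvn1 at 0.83 lie farthest right, both in re-fed livers.

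Whether re-feeding acted differently in LMKO and control livers was tested as an interaction, the re-feeding log2 fold change in LMKO minus that in control livers. For 0 of the 35 genes was it called, while 0.0368% of all loci tested were, and 3 of the 35 had an unadjusted p under 0.05, as did 9.35% of all loci tested. Those were Creld2, Syvn1 and Pdia5. Creld2 had a re-feeding log2 fold change of 2.15 in LMKO and 1.12 in control livers, a difference of 1.03 (95% interval 0.23 to 1.83, limma adjusted p = 0.507). Syvn1 had 1.68 in LMKO and 0.86 in control livers, a difference of 0.83 (95% interval 0.29 to 1.37, adjusted p = 0.507). For Pdia5 the difference was 0.39 (adjusted p = 0.532), for Hspa5 0.49 (adjusted p = 0.535) and for Ern1 -0.71 (95% interval -1.58 to 0.15, adjusted p = 0.587). The median of the 35 differences was 0.02, against -0.06 for all loci tested. Without LMKO fasted replicate 1 the number of genes at an unadjusted p under 0.05 was 1.

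Around these genes, 7 lists of related ER genes were read in the same fit over both genotypes, where 32.4% of all loci were called higher and 20.6% lower. The steps before and beside folding moved the same way as the 35. Of 14 genes for adding and trimming N-glycans 12 rose and 0 fell, with a median log2 fold change of 0.94, led by the oligosaccharyl transferase subunits Ostc at 2.02, Ddost at 1.65 and Dad1 at 1.30. Of 17 other genes for translocation and signal peptide cleavage 14 rose and 0 fell (median 0.92), led by the Sec61 gamma subunit Sec61g at 2.31 and the signal peptidase subunits Spcs2 at 1.66 and Sec11c at 1.56. The list of other folding enzymes also included genes that are not enzymes of folding. Among these were the cargo receptors Lman1 and Mcfd2, the retrieval receptors Kdelr1, Kdelr2 and Kdelr3, and Cdk5rap3. Of its 25 tested genes 19 rose and 1 fell (median 0.67). The prolyl isomerase Fkbp11 at 2.39, the HSP70-like Hspa13 at 1.03 and Cdk5rap3 at 1.01 had the smallest p.

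Other steps were mixed. Of 12 genes of the COPII coat, which carries cargo out of the ER, 4 rose and 4 fell, with the coat subunit Sec23b at 1.45 and the exchange factor Preb at 0.79 among the first and the coat subunit Sec24b at -0.61 among the second. Of 17 other degradation genes 5 rose and 3 fell, with Edem2 at 1.28, Vimp at 0.81 and Rnf5 at 0.66. Of 11 other stress sensors and regulators 5 rose and 1 fell, with Wfs1 at 0.82, Bax at 0.81 and Atf6b at 0.68. Over the settings tried, 4 to 6 COPII genes, 1 to 7 degradation genes and 0 to 4 sensors and regulators were called lower. Medians of the COPII, degradation and sensor lists were 0.03, 0.09 and 0.12, and all were below 0 with quantile normalization (-0.30, -0.14 and -0.16) and with equal FPKM sums (-0.24, -0.16 and -0.15).

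Of 15 genes of the PERK and ATF4 arm 6 rose and 4 fell, with a median of 0.15. Of all loci tested 32.4% were called higher and 20.6% lower. Ddit3, which encodes the factor CHOP, had 18.0 and 18.3 FPKM in LMKO re-fed and 9.62 and 12.6 in control re-fed livers, against 5.81 and 4.17 in LMKO fasted and 4.34 and 5.22 in control fasted livers. Its 4 re-fed libraries were above all fasted ones, with a log2 fold change of 1.38. Ppp1r15a, the phosphatase subunit that reverses PERK signalling, fell by 0.72 on the log2 scale, and Atf3, at 0.301 to 2.70 FPKM in all libraries, rose by 0.87. None of the 7 lists had a gene called between genotypes over both states by limma, and PERK-arm genes at an unadjusted p under 0.05 in that comparison numbered 4 of 15, with 3 higher and 1 lower in LMKO livers, while 15.1% of all loci tested passed that limit.

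**Figure D5:**
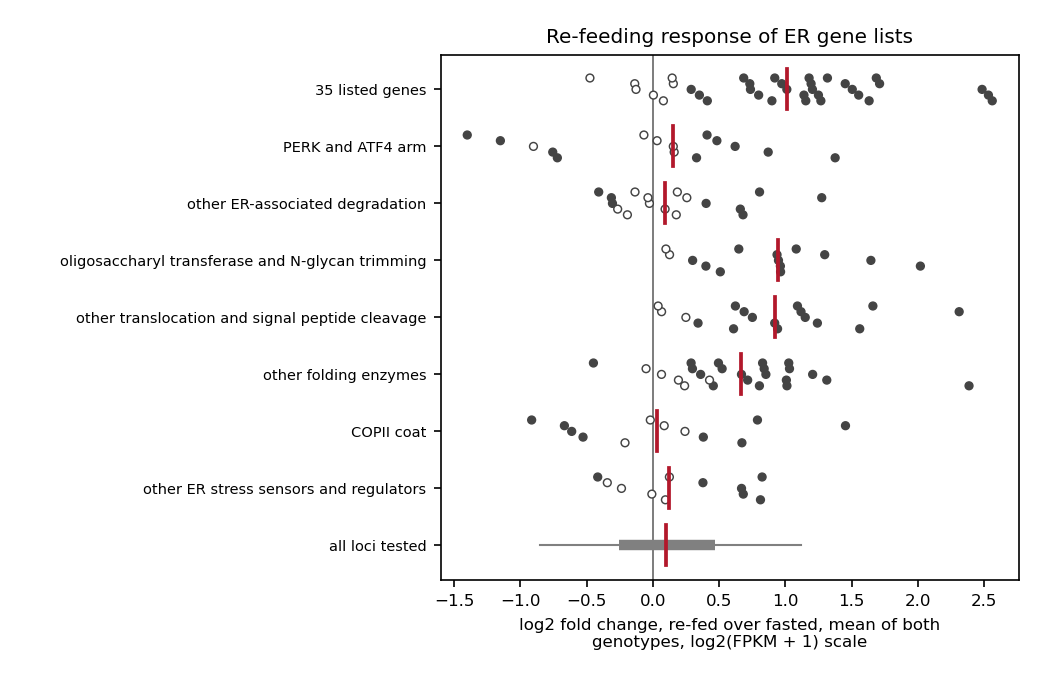
Log2 fold change on re-feeding over both genotypes for the 35 genes and 7 related lists, 1 point per gene, filled where the limma adjusted p was under 0.05, with list medians as red bars and, for all loci tested, the middle 50 percent as a thick and the range from the 5th to the 95th percentile as a thin grey line. The medians of the 35 genes at 1.01, glycosylation at 0.94 and translocation at 0.92 lie right of that of all loci at 0.10.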

How the data were processed

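Per the submitters' processing notes, the reads were handled with TopHat 1.4.1, SAMtools 1.4.1, Cufflinks 2.0.2 and Cuffdiff 2.0.2 on the mm9 build, and the authors deposited 1 FPKM value per locus and library for 23699 loci. No label used here says how FPKM values were scaled between libraries. Libraries were prepared with a TruSeq kit, per the labels' protocols, and strand use in counting is not stated.

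From these values log2(FPKM + 1) was computed, with a pseudocount of 1, for the 10865 loci with at least 1 FPKM in at least 2 libraries. One limma 3.58.1 model (R 4.3.3) of 4 group means over all 8 libraries, with a mean-variance trend and 4 residual degrees of freedom, gave every comparison. Its p-values were adjusted with Benjamini-Hochberg over all loci tested, and a locus was called at an adjusted p under 0.05. The fit was tested on simulated data. Fold changes on this scale understate those of low genes. Replicates are separate mice, per the series' design text.

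The 35 genes, their roles and the related and marker lists were chosen with earlier results of these data known. Values in every library are given for called genes (the 12 with the largest change where more were called) and, in each role, for the 2 genes with the smallest p for feeding and the 2 with the smallest p for genotype. From each related list up to 3 genes with the smallest p are named. Starts of loci were raised by 1 to count from 1, since end minus start equalled the reference length for 8769 of 20652 symbols. Promoters come from RefSeq tables of GRCm38.p6, with Ero1l and Ero1lb matched through synonyms. Transcript length, used in 1 alternative, is the median over a gene's annotated transcripts. Replicate numbers did not pair libraries, since deviations of same-numbered libraries correlated at -0.0835 to -0.00835. Alternatives changed the pseudocount, the filter, the scaling, the moderation, the libraries fitted and a length correction.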

Additional observations from a re-analysis of the deposited data

How the results depend on the processing

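With 2 libraries a group and unknown read depth, small differences between genotypes were not resolvable, and a p that misses the threshold does not show equal levels. Over the settings with 2 libraries in every group fitted, 26 to 29 of the 35 genes were called on re-feeding over both genotypes. The number was 20 to 28 in LMKO and 20 to 28 in control livers. It was 0 between genotypes and for the interaction in those settings. With no filter on low values, 34% of all loci tested were called over both genotypes, 22.3% in LMKO and 17.3% in control livers. With a filter at 5 FPKM the shares were 59.2%, 45.9% and 40.6%. These were the lowest and highest shares among those settings. Shares are not set beside the fits that leave out 1 library, where 1 group holds 1 library. Leaving out 1 library gave 26 to 28 over both genotypes, 20 to 26 in LMKO livers, 20 to 25 in control livers and 0 to 0 for LMKO against control in re-fed, fasted or both states and for the interaction. A replicate block gave 29 over both genotypes (the same 28 higher, and Ern1 lower), 26 in LMKO and 25 in control livers. It gave 0 for the genotype and interaction comparisons and changed no other call. Of all loci tested 49.8%, 35% and 27.3% were called on re-feeding with that block, over both genotypes, in LMKO and in control livers. On leaving out 1 library, calls lost in LMKO livers were of Canx, Pdia4, Fkbp2, Edem1, Ern1 and Xbp1, and in control livers of Hsp90b1, Pdia4, Creld2, Fkbp2, Derl2 and Syvn1. Within LMKO livers 2521 loci were called higher and 1775 lower, against 2012 and 2014 with quantile normalization and 1213 and 3101 with equal FPKM sums. Within control livers the split was 2473 and 1137, against 1839 and 1609 with median-ratio scaling, 1672 and 1694 with quantile normalization and 1327 and 1644 with equal FPKM sums. The PERK-arm list had 10 genes called, and 5 with a filter at 5 FPKM. The median interaction of the 35 was 0.14 with median-ratio scaling and -0.09 with equal FPKM sums. Values of uncalled genes over both genotypes turned sign. With median-ratio scaling Sel1l was -0.0016 and Atf6 -0.073. With quantile normalization Dnajc3 was -0.15, Pdia5 -0.10, Sel1l -0.17 and Atf6 -0.073. With equal FPKM sums Dnajc3 was -0.12, Pdia5 -0.12, Sel1l -0.19 and Atf6 -0.25, and without the length trend Pdia5 was -0.0066. Without that trend Dnajc3 (0.48) and Atf6 (0.30) were called higher and Ero1l (0.067) was not; Dnajc3 and Ero1lb were also called higher within LMKO and within control livers, Derl1 within LMKO and Atf6 within control livers. Leaving out 1 library put Atf6 between -0.11 and 0.12 over both genotypes and Ern1 in control livers between -0.39 and 0.15; the causes were not tested.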
